A study of Mus musculus with 8 samples.

Results

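The 10 genes described here encode annexins (*Anxa1*, *Anxa2*, *Anxa5*), S100 calcium-binding proteins (*S100a6*, *S100a10*, *S100a11*), the actin cross-linker filamin A (*Flna*), the small GTPase RhoB (*Rhob*), the intermediate filament vimentin (*Vim*) and galectin-1 (*Lgals1*). They were taken by symbol, as 10 of the 24385 features of a deposited table of transcript levels, and all 10 passed the filter of a mean of at least 1 FPKM (fragments per kilobase of transcript, scaled to the mapped fragments), as did 10018 features in all. Whole hearts were taken from mouse embryos on the C57BL/6 background at embryonic day 8.5 (E8.5) and E9.5, and RNA was sequenced from 2 biological replicates of each genotype at each stage, 8 libraries in 4 groups. The controls, labelled wild type (WT), carried *Dgcr8* loxP/loxP and *Rosa26* mT/mG/+ without Cre, by the study's methods. The conditional knockout (cKO, labelled Mesp1Cre/+; Dgcr8-/-) carried *Mesp1* Cre/+, *Dgcr8* loxP/loxP and *Rosa26* mT/mG/+. The Cre allele was therefore absent from the controls, both genotypes carried the loxP alleles and the mT/mG reporter, and deletion could occur only in progeny of cells that had expressed *Mesp1*, an early mesoderm gene. *Dgcr8* encodes the partner of the nuclease Drosha that cuts primary microRNA transcripts. The genes were listed with earlier results of these data in view, the record does not say which values chose them, and they are taken here as selected on their difference in FPKM between cKO and WT at E9.5. Their values in that contrast are given as a description, with no test. The comparisons of stages hold the same E9.5 libraries, so for the 4 genes at least 1.5-fold higher in E9.5 cKO (*Anxa2*, *Flna*, *Rhob* and *S100a6*) no p is printed for a lower level at E9.5 in WT or a higher one in cKO, and whether such a difference was called (adjusted p under 0.05 and at least 1.5-fold, limma) describes the fit only.

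Annexins bind acidic phospholipids of membranes in the presence of calcium and link them to the actin cortex. S100 proteins are small EF-hand proteins that bind annexins as dimers: S100a10 forms a complex with annexin A2, and S100a11 with annexin A1. Filamin A cross-links actin filaments and ties them to integrins, RhoB is an endosomal GTPase that is induced rapidly by growth factors and stress, vimentin is the intermediate filament of mesenchymal and endothelial cells, and galectin-1 is a secreted lectin that binds beta-galactosides. In the embryonic heart such genes are known mainly from endocardial, mesenchymal and smooth muscle cells.

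*Dgcr8* itself was at 7.10 and 8.60 FPKM in WT against 1.64 and 4.67 in cKO hearts of E8.5, and at 3.49 and 3.23 in WT against 1.15 and 1.77 in cKO hearts of E9.5. It was lower in both cKO libraries at each stage, and its difference was -1.19 (SE 0.36, adjusted p = 0.59, limma) at E8.5 and -0.84 (SE 0.36, adjusted p = 0.317, limma) at E9.5, on the log2(FPKM + 1) scale used for every difference below. Depth was 1 to 1.45 relative to the shallowest library and did not separate the groups. Cardiomyocyte markers were abundant in every library, with a summed level of 25791 to 80273 FPKM over 9 genes. At E8.5, however, genes of maternal tissue were found in the libraries, at a much lower level in 1 of the 4. *Prl8a2*, a prolactin-family gene of the decidua, was at 449 and 1141 FPKM in the WT replicates and at 9.95 and 5104 in cKO replicates 1 and 2, while the E9.5 libraries held 0.746 to 5.09. The E8.5 libraries are therefore named one by one, and results that rest on them are also given without 1 of the cKO replicates.

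The sequence before the start site was available from RefSeq (GRCm38) for 8 of the 10 genes, all but *S100a10* and *Lgals1*. The 250 bases upstream of 6 of them are shown, 5′ to 3′ on the strand of the gene: those called between stages (*Anxa2*, *Flna*, *Rhob*, *Vim*) and the pair with the widest range between libraries (*Anxa1*, *S100a6*). Capitals mark matches, on either strand, to the 6 motifs that were searched: the TATA box TATAAA, the CCAAT box, the GC box GGGCGG, the AP-1 element TGANTCA, the TEAD element GGAATG and, by name, the CArG box of serum response factor.
Anxa1, chr19:20390672-20390921, minus strand: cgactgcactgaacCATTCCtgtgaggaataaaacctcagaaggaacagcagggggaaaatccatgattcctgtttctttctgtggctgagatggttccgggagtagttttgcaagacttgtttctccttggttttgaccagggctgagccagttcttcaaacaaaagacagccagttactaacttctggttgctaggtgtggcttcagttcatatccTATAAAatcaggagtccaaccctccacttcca
Anxa2, chr9:69453433-69453682, plus strand: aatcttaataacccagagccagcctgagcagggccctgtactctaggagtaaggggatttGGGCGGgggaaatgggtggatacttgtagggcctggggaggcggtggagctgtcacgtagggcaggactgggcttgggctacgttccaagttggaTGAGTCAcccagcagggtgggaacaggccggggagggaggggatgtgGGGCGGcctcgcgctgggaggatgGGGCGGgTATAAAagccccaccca
S100a6, chr3:90612644-90612893, plus strand: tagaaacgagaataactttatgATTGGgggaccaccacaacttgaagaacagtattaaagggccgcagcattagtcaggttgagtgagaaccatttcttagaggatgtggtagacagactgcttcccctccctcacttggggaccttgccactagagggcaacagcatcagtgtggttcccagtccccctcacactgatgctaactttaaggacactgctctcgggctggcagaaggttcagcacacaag
Flna, chrX:74246535-74246784, minus strand: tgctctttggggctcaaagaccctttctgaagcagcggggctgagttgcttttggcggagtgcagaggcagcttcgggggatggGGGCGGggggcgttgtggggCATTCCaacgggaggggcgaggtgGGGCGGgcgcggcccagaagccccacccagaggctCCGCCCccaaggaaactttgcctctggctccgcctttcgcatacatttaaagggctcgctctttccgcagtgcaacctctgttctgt
Rhob, chr12:8500010-8500259, minus strand: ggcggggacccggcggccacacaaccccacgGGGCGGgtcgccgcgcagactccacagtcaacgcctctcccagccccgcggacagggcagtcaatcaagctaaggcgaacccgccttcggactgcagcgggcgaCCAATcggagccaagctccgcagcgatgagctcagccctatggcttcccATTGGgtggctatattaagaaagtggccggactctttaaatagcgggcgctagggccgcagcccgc
Vim, chr2:13574061-13574310, plus strand: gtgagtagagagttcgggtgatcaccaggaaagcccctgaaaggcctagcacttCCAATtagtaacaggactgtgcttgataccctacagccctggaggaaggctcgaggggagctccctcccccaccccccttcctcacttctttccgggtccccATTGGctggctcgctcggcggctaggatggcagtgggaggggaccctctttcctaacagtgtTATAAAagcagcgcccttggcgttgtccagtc

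TATAAA was present in 3 of the 8 windows, at -32 in *Anxa1* and *Vim* and at -17 in *Anxa2* (position of the first base, counted back from the start site), and in 12.4% of all 32851 promoters of that length. GGGCGG occurred in 4 windows (*Anxa2*, *S100a11*, *Flna* and *Rhob*) against 32.7% of all promoters, and CCAAT in 3 (*S100a6*, *Rhob* and *Vim*) against 33.8%. The AP-1 motif was found in *Anxa2* at -95 and in *S100a11* at -136 and -38, and in 6.75% of promoters, while GGAATG was found in *Anxa1* at -236 and *Flna* at -146, and in 12.6%. No window held a CArG box, which 1.47% of promoters did. Matches in these windows did not overlap each other. GC content ranged from 46.0% in *Anxa1* to 66.0% in *Rhob*, with a median of 52.4% over all promoters. *Anxa1* and *S100a6*, which were high in the same libraries, had none of these motifs in common.

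Levels in FPKM are scaled to transcript length and can be compared between genes. By the mean over the 8 libraries, *Lgals1* (422 FPKM) was the most abundant of the 10, followed by *S100a10* (297), *S100a11* (296), *Vim* (262), *S100a6* (253), *Anxa2* (237), *Anxa5* (143), *Flna* (35.6), *Anxa1* (6.76) and *Rhob* (5.17). Neighbours in this order differed by less than their spread over libraries, except that *Anxa5* was above *Flna* and *Flna* above *Anxa1* by more than it. The order depends on single libraries for *S100a6*, whose mean was carried by E8.5 cKO replicate 2 (1468 FPKM) and whose E9.5 levels of 4.91 to 13.2 FPKM lay below those of *Flna* (15.0 to 64.4). Galectin-1 and *S100a10* were above 96.8% and 95.9% of the tested genes, *Rhob* above 43.3%. By the mean of a group, *Lgals1* was the most abundant of the 10 only in E9.5 WT (502 FPKM). *S100a10* was first in E8.5 WT (402), *S100a6* in E8.5 cKO (738) and *Anxa2* in E9.5 cKO (521).

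**Figure D1:**
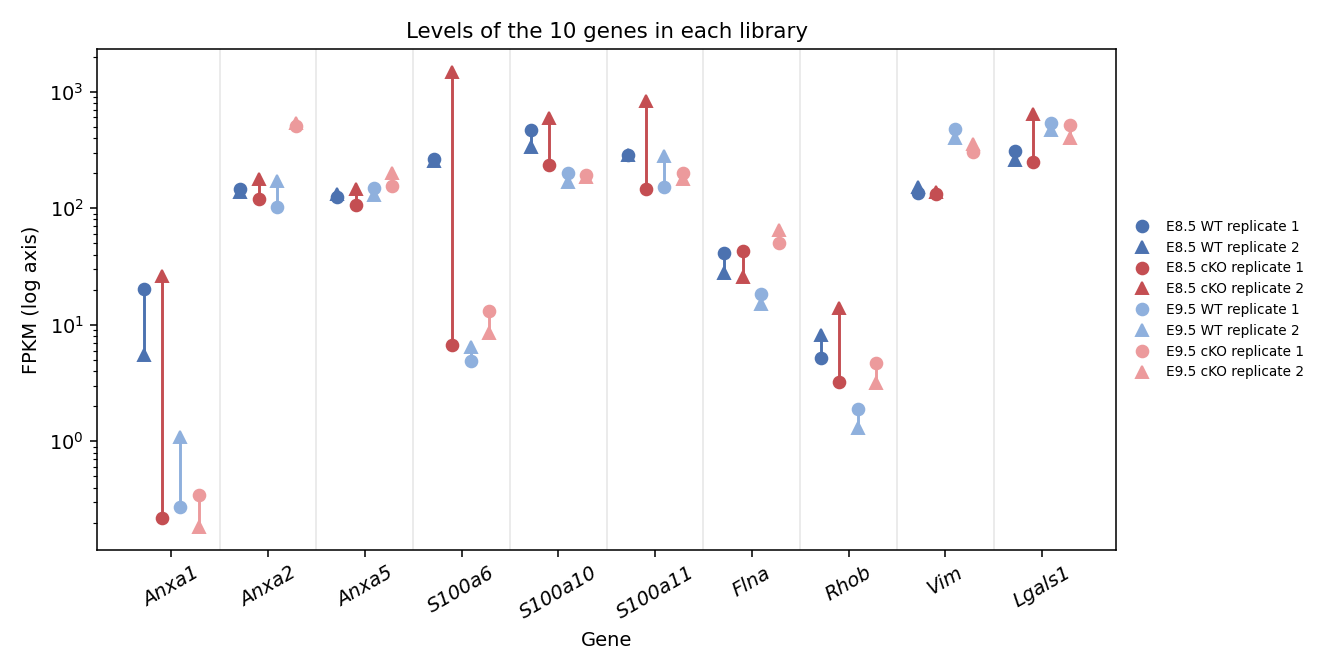
FPKM (log axis) of the 10 genes in each of the 8 libraries, with circles for replicate 1, triangles for replicate 2 and a line joining the replicates of a group. *Anxa2* and *Flna* were highest in the 2 E9.5 cKO libraries, and *S100a6* spanned 6.67 to 1468 FPKM between the E8.5 cKO replicates.

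Annexin A2 (chromosome 9, 69453683 to 69491785) was the member with the largest level difference between genotypes at E9.5. It was at 146 and 137 FPKM in WT hearts of E8.5 against 120 and 179 in cKO hearts, and 102 and 173 in WT hearts of E9.5 against 508 and 533 in cKO hearts. The 2 E9.5 cKO libraries lay above all 6 others, which overlapped one another. The group means at E9.5 were 137 ± 49.9 in WT and 521 ± 17.7 in cKO (SD, n = 2), a difference of 1.96 on the log2 scale, as a description. From E8.5 to E9.5 the difference was 1.82 (SE 0.33) in cKO hearts, and in WT hearts it was -0.09 (SE 0.33). The cKO difference was 1.53 without E8.5 cKO replicate 1 and 2.11 without replicate 2. *S100a10*, whose product binds annexin A2, did not separate the genotypes at E9.5, with 202 and 167 FPKM in WT against 193 and 184 in cKO.

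Annexin A5, which binds phosphatidylserine on membranes, was the most even of the genes. Its levels were 125 and 133 FPKM in WT hearts of E8.5 against 106 and 145 in cKO hearts, and 150 and 130 in WT hearts of E9.5 against 155 and 200 in cKO hearts, a span of 1.88-fold over all libraries. The E9.5 cKO libraries were above the E9.5 WT ones by a narrow margin, and no tested comparison passed the threshold.

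Annexin A1 (chromosome 19, 20373434 to 20390671) was almost absent at E9.5 and split the E8.5 libraries. It was at 20.1 and 5.53 FPKM in WT hearts of E8.5 against 0.219 and 26.3 in cKO replicates 1 and 2, and at 0.271 and 1.09 in WT hearts of E9.5 against 0.345 and 0.183 in cKO hearts. E8.5 cKO replicate 1 lay among the E9.5 libraries and replicate 2 was the highest of all, a ratio of 120 between replicates. The 5 lowest levels corresponded to 4, 5, 5, 7 and 26 fragments, when FPKM was multiplied by relative depth and divided by the unit chosen to bring all 5 within 0.05 of a whole number. The exact Poisson 95% intervals, which cover counting error only, ran from 1.09 to 10.2 for 4 fragments and from 2.81 to 14.4 for 7, so the order of those 4 libraries was not resolved, while that of E9.5 WT replicate 2, with 26, ran from 17.0 to 38.1. With all 8 libraries in 1 fit, no test of *Anxa1* passed the threshold (WT, E9.5 against E8.5: -2.85, SE 1.23, adjusted p = 0.0832, limma). In WT it was called lower at E9.5 with only the 2 groups in the fit (adjusted p = 0.0208, limma) and without E8.5 cKO replicate 1 (adjusted p = 0.00841, limma) or replicate 2 (adjusted p = 0.00835, limma), and in cKO without E8.5 cKO replicate 1 (-4.44, adjusted p = 0.00889, limma).

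The S100 genes of the set lie on chromosome 3, *S100a11* (93520496 to 93526288) and *S100a10* (93555117 to 93564645) next to each other with 28828 bases between them, and *S100a6* (90612894 to 90614414) 2906081 bases from *S100a11*. *S100a6*, which encodes calcyclin, had the widest range of the 10 genes. It was at 262 and 256 FPKM in WT hearts of E8.5 against 6.67 and 1468 in cKO hearts, and 4.91 and 6.49 in WT hearts of E9.5 against 13.2 and 8.57 in cKO hearts. The 2 WT replicates at E8.5 were within 1.02-fold of each other, while the cKO replicates differed 220-fold, with 1 far below and the other far above the WT pair. The E9.5 levels were low in all 4 libraries, and the cKO pair lay above the WT pair. Between stages in WT the difference was -5.29 (SE 1.92). It was not called with all 8 libraries in 1 fit, and it was called with a pseudocount of 0.1, a mean of at least 5 FPKM, totals over loci of 300 bp or more, only the 2 groups in the fit, or either E8.5 cKO library left out. The fit shares 1 spread over the 4 groups, so the E8.5 cKO pair also sets this standard error.

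*S100a11* followed a similar but shallower course. Its levels were 288 and 288 FPKM in WT hearts of E8.5 against 146 and 839 in cKO hearts, and 153 and 280 in WT hearts of E9.5 against 201 and 177 in cKO hearts. Only E8.5 cKO replicate 2 stood apart, 5.76-fold above replicate 1, and the E9.5 genotypes overlapped. *S100a10* was at 473 and 332 FPKM in WT hearts of E8.5 against 235 and 593 in cKO hearts, and 202 and 167 in WT hearts of E9.5 against 193 and 184 in cKO hearts. All 4 E9.5 libraries lay below all 4 E8.5 libraries, but the differences of -1.10 in WT (SE 0.43, adjusted p = 0.0618, limma) and -0.98 in cKO (SE 0.43, adjusted p = 0.109, limma) did not pass the threshold. The median of all tested genes was -0.84 in WT and -0.64 in cKO. After median-ratio scaling *S100a10* differed by -0.09 in WT and -0.21 in cKO. In WT it was called lower with totals over loci of 300 bp or more, with only the 2 groups in the fit, or with either E8.5 cKO library left out.

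Filamin A (chromosome X, 74223461 to 74246534) had lower levels at the later stage in WT hearts and higher levels at the later stage in cKO hearts. It was at 41.6 and 27.6 FPKM in WT hearts of E8.5 against 42.7 and 25.5 in cKO hearts, and 18.3 and 15.0 in WT hearts of E9.5 against 50.0 and 64.4 in cKO hearts. The E8.5 pairs covered each other, the E9.5 WT libraries lay below them and the E9.5 cKO libraries above. The group means at E9.5 were 16.6 ± 2.36 in WT and 57.2 ± 10.2 in cKO (SD, n = 2), a difference of 1.72 on the log2 scale, as a description. From E8.5 to E9.5 the difference of *Flna* in WT hearts was -0.99 (SE 0.34), close to the median of all genes in that comparison, and after scaling the libraries by median ratios it was -0.01. In cKO hearts the difference was 0.76 (SE 0.34), and after that scaling it was 1.53, neither of which was called.

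RhoB (chromosome 12, 8497759 to 8499985) had the lowest mean over the 8 libraries, although *Anxa1* was below it in 6 of them. It was at 5.14 and 8.11 FPKM in WT hearts of E8.5 against 3.20 and 13.8 in cKO hearts, and 1.88 and 1.30 in WT hearts of E9.5 against 4.69 and 3.19 in cKO hearts. The E9.5 WT libraries were the lowest of the 8, below both E9.5 cKO libraries. In WT hearts the difference of *Rhob* between stages was -1.54 (SE 0.54), which was called with all 8 libraries in 1 fit. It was no longer called after median-ratio scaling (-0.76), quantile normalization, no filter, a mean of at least 5 FPKM or the replicate block. In cKO hearts the difference was -0.69 (SE 0.54, adjusted p = 0.328, limma). Without E8.5 cKO replicate 1 that difference became -1.60 (adjusted p = 0.0204, limma), and without replicate 2 it was 0.22.

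Vimentin (chromosome 2, 13574311 to 13582826) rose between stages in both genotypes. It was at 134 and 151 FPKM in WT hearts of E8.5 against 132 and 137 in cKO hearts, and 475 and 403 in WT hearts of E9.5 against 302 and 358 in cKO hearts. All 4 E9.5 libraries lay above all 4 E8.5 libraries, and at E9.5 the cKO pair lay below the WT pair. The rise was 1.61 in WT (SE 0.25, adjusted p = 0.0114, limma) and 1.29 in cKO (SE 0.25, adjusted p = 0.0167, limma), and it stood out more after median-ratio scaling (2.63 and 2.06), beside a median of all tested genes of -0.84 in WT and -0.64 in cKO before scaling. The E9.5 group means were 439 ± 51.1 in WT and 330 ± 39.5 in cKO (SD, n = 2), a difference of -0.41 on the log2 scale, as a description. With quantile normalization that difference was -0.07. Divided by the library median, the level was 110 and 89.8 in WT against 67.2 and 93.0 in cKO, which overlap.

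Galectin-1 was at 308 and 258 FPKM in WT hearts of E8.5 against 249 and 643 in cKO hearts, and 537 and 468 in WT hearts of E9.5 against 513 and 399 in cKO hearts. The WT libraries of E9.5 lay above those of E8.5, with a difference of 0.83 (SE 0.43, adjusted p = 0.129, limma) that did not pass the threshold and was called only with the 2 groups alone in the fit or with either E8.5 cKO library left out. At E9.5 the genotypes overlapped.

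In the contrast of cKO with WT at E9.5, both cKO libraries were above both WT libraries in 5 of the 10 genes (*Anxa2*, *Anxa5*, *S100a6*, *Flna* and *Rhob*), as were 21.0% of all tested genes. Both were below in 1 gene (*Vim*), as were 31.1%. When each level was divided by its library's median, 4 genes were above (*Anxa2*, *S100a6*, *Flna* and *Rhob*; 25.1% of all genes) and 0 below (25.4% of all genes). Since this contrast is taken to have chosen the genes, nothing is read from these counts. The difference was at least 1.5-fold upward in *Anxa2* (3.90-fold), *Flna* (3.29-fold), *Rhob* (1.90-fold) and *S100a6* (1.75-fold). It was between -0.41 and 0.33 on the log2 scale in the other 6 genes.

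Several cell type markers differed in the same contrast. The summed level of 9 endothelial and endocardial markers was 119 and 112 FPKM in E9.5 WT and 207 and 174 in cKO, with 5 of the 9 above and 1 below without overlap. The mesenchymal and smooth muscle list of 8 genes summed to 3074 and 4193 FPKM in WT and 6877 and 6593 in cKO, which was almost wholly *Acta2*, and 6 of its genes were below in cKO. Epicardial markers summed to 42.5 and 25.7 FPKM in WT and 13.2 and 13.99 in cKO, with all 6 below. Cardiomyocyte markers summed to 58682 and 56853 in WT and 80137 and 80273 in cKO, with 5 of 9 above and 1 below. The macrophage and neutrophil list summed to 10.2 and 12.6 FPKM in WT and 15.96 and 16.2 in cKO, with 3 of its 8 genes above and 0 below, and 3 of the 6 erythroid markers were above and 0 below, although their sums overlapped. Since these are whole hearts, a different number of cells of a type and a different amount of RNA per cell cannot be told apart. Across 9122 genes with a transcript length and GC content, the E9.5 difference had a Spearman correlation of 0.405 with GC content, a relation across genes, which are not independent replicates. For the difference between replicates 1 and 2 of a group the same correlation was 0.627 in E9.5 WT, 0.344 in E8.5 cKO, 0.180 in E9.5 cKO and -0.211 in E8.5 WT. The GC content of the *Anxa2*, *Flna* and *Rhob* transcripts was 53.1%, 54.0% and 57.5%, above that of 62.3%, 67.9% and 87.3% of those genes. That of *Vim* was 53.9%. Its FPKM was lower in cKO, but with quantile normalization its difference was -0.07. The part of the cell type markers and of GC content in the level differences was not tested.

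At E8.5, from 4 libraries that the E9.5 contrast does not hold, 0 of the 10 genes were called in either direction (adjusted p under 0.05 and at least 1.5-fold, limma), against 1 of 10018 genes or 0.00998%. The smallest adjusted p among them was 0.663, and 0 passed at an unadjusted p under 0.05. The 2 cKO libraries were both above or both below the WT pair in 0 genes, while 2.54% of all genes were above and 40.1% below. Loci under 300 bp held 15.7% and 16.2% of the FPKM total in these WT libraries and 38.6% and 50.5% in cKO. The part of that share in the differences was not tested. After division by the library median, 3 genes were above (*Anxa2*, *Vim* and *Lgals1*; 12.9% of all genes) and 0 below (12.7% of all genes). The median difference of the 10 genes was -0.04, beside -0.28 over all tested genes. *Anxa2* and *Flna*, which separated the genotypes at E9.5, differed at E8.5 by 0.05 (SE 0.33, adjusted p = 0.956, limma) and -0.04 (SE 0.34, adjusted p = 0.97, limma). Whether the effect of genotype differed between stages was not tested, since that difference contains the E9.5 contrast.

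**Figure D2:**
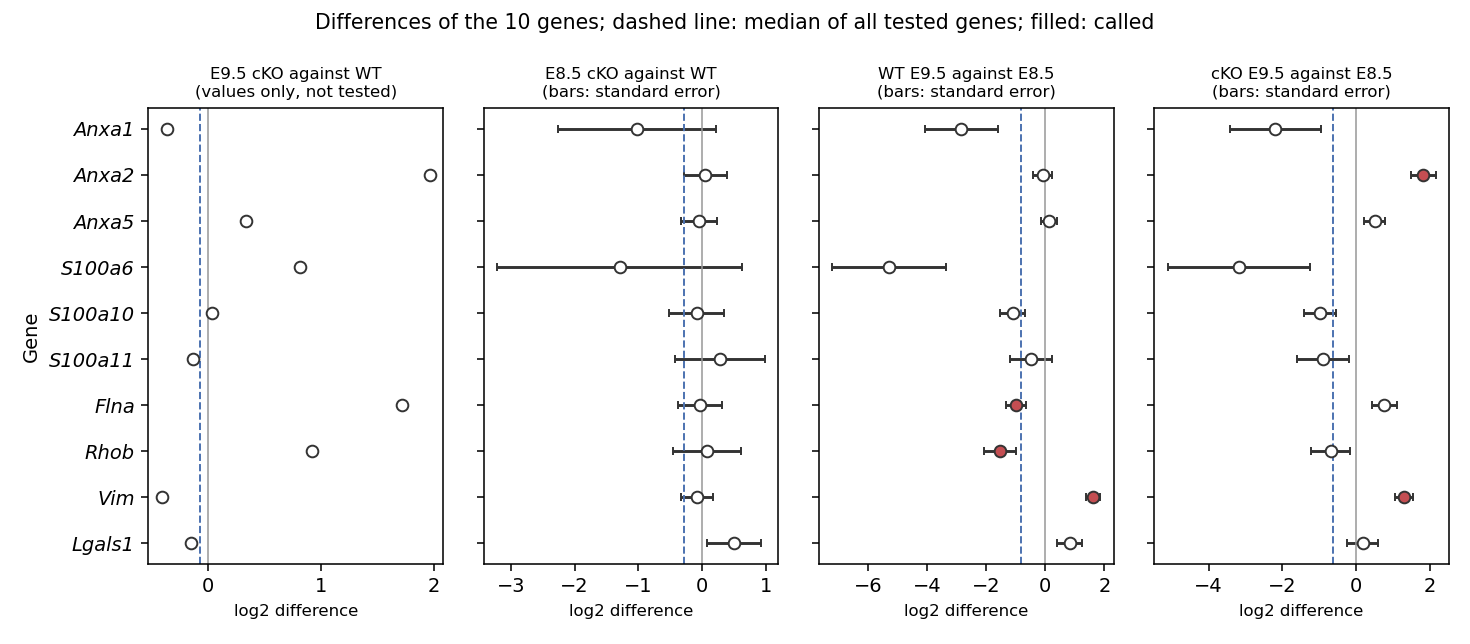
Log2 differences of the 10 genes in the 4 comparisons, with the standard error of the fit in the 3 tested ones; filled points were called and the dashed line is the median of all 10018 tested genes. At E8.5 all 10 points were open, with wide errors for *S100a6* (SE 1.92) and *Anxa1* (SE 1.23), and *Vim* was called higher at E9.5 in both genotypes.

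On the log2(FPKM + 1) scale, 3 of the 10 genes (*Anxa1*, *S100a6* and *S100a11*) were at least 4-fold apart between the 2 E8.5 cKO libraries, as were 2.57% of all tested genes, and 0 of the 10 were in any other group. Replicate 2 was the higher one in 9 of the 10 genes, all but *Flna*, while 43.3% of all genes were higher in it. The median absolute difference between these replicates was 1.35 for the 10 genes and 0.45 for all genes. The corresponding values in E8.5 WT were 0.22 and 0.22.

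Without E8.5 cKO replicate 1, the E8.5 genotype difference of *S100a6* was 2.50 (SE 0.31, adjusted p = 0.0529, limma), that of *S100a11* 1.54 (adjusted p = 0.107, limma) and that of *Anxa1* 1.22 (adjusted p = 0.281, limma). Without replicate 2 the same differences were -5.08 (SE 0.31, adjusted p = 0.00324, limma), -0.98 (adjusted p = 0.497, limma) and -3.27 (adjusted p = 0.17, limma), so that *S100a6* was then called lower. The sign of each of these genes was thus set by which cKO library was kept. In such a fit the lone cKO library is assumed to vary like the other groups.

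The genes that were high in E8.5 cKO replicate 2 were accompanied by markers of maternal and myeloid cells. The sum over 7 decidual genes was 1126 and 2150 FPKM in the WT hearts of E8.5, 768 and 6633 in cKO replicates 1 and 2 of that stage, and 524 to 716 at E9.5, where the sum was mostly *Cryab*, a gene that heart muscle also expresses. *Prl3c1*, another prolactin-family gene of the decidua, was at 8.50, 18.2, 0.505 and 40.9 FPKM in the E8.5 libraries in the same order and was listed at 0 in all 4 at E9.5. The sum over 8 macrophage and neutrophil genes was 399 and 101 FPKM in WT and 9.16 and 295 in cKO hearts of E8.5, and 10.2 to 16.2 at E9.5. At E8.5 its largest part was *S100a8*, itself an S100 gene, at 306 and 67.5 FPKM in WT and 3.84 and 201 in cKO. *Lyz2* was at 35.5, 18.2, 1.96 and 61.1 FPKM in the same order, and the leukocyte gene *Ptprc* was at most 0.484. The list of 6 uterine natural killer cell genes summed to 158 FPKM in E8.5 WT replicate 1 and to at most 1.57 elsewhere. Of the 10 genes, 8 (all but *Flna* and *Vim*) had their lowest E8.5 level in cKO replicate 1 and their highest in cKO replicate 2. The decidual sum was lowest and highest in the same libraries. The macrophage and neutrophil sum was also lowest in cKO replicate 1, but it was highest in WT replicate 1. The share of all tested genes with this order was not counted, so nothing is read from the number of members. The part of these markers in the levels was not tested. The sum of the visceral endoderm and yolk sac markers was 549.7 and 1783 FPKM in WT against 4720 and 1423 in cKO hearts of E8.5, and 3015 to 5074 at E9.5, and that of the erythroid markers was 7779 to 39583 over all libraries.

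**Figure D3:**
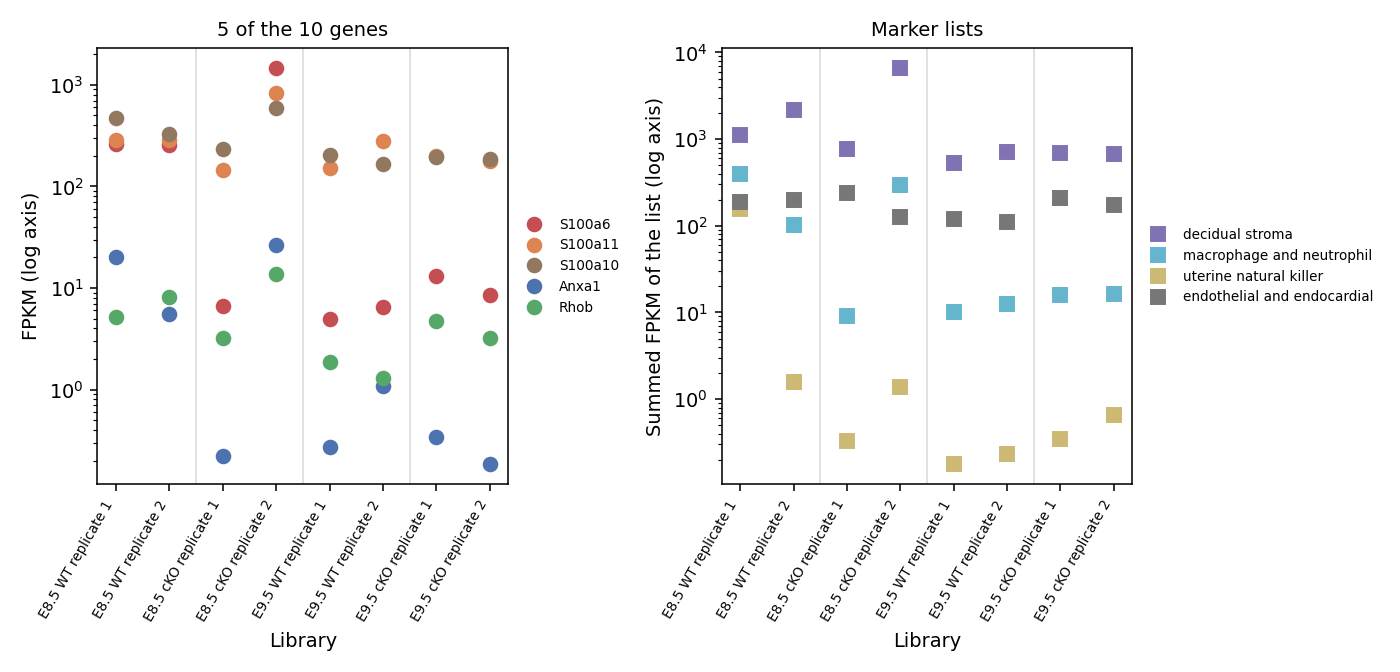
FPKM of 5 of the 10 genes (left) and summed FPKM of 4 marker lists (right) in each library, both on log axes, with grey lines between the groups. E8.5 cKO replicate 2 held the highest *S100a6* level (1468 FPKM) and the highest decidual sum (6633 FPKM), and E8.5 cKO replicate 1 the lowest of both at E8.5 (6.67 and 768 FPKM).

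Between E8.5 and E9.5 in WT hearts, 1 of the 10 genes was called higher (*Vim*), as were 1.4% of all tested genes, and 2 were called lower (*Flna* and *Rhob*), as were 46.7%. After median-ratio scaling 1 was called higher (*Vim*) and 0 lower, beside 293 higher and 65 lower of all 10018 tested genes. On FPKM as deposited, both E9.5 libraries were above both E8.5 libraries in 2 genes (*Vim* and *Lgals1*, 5.43% of all genes) and below in 6 (*Anxa1*, *S100a6*, *S100a10*, *S100a11*, *Flna* and *Rhob*, 80.1% of all genes). After division by the library median, 5 were above (*Anxa2*, *Anxa5*, *S100a11*, *Vim* and *Lgals1*, 36.1% of all genes). On that scale 3 were below (*Anxa1*, *S100a6* and *Rhob*, 21.3% of all genes). The median of the 10 genes was -0.73 and that of all genes -0.84. This comparison shares the E9.5 WT libraries with the contrast treated as the one that chose the genes. Many of its calls were lost when 1 WT library was left out, which leaves 1 library in that group. The differences of the genes called lower kept their sign, at -1.28 to -0.70 for *Flna* and -1.82 to -1.25 for *Rhob* over all fits without 1 library. Over all tested genes there were 140 calls upward and 4683 downward, against 4 and 28 without E8.5 WT replicate 1, 16 and 184 without E8.5 WT replicate 2 and 10 and 48 without E9.5 WT replicate 1. Of the members, the 3 genes were no longer called without E8.5 WT replicate 1, E8.5 WT replicate 2 or E9.5 WT replicate 1, and *Vim* alone was called without E9.5 WT replicate 2 or without either E9.5 cKO library. The *Vim* difference stayed between 1.49 and 1.73 in these fits, with adjusted p (limma) from 0.00573 to 0.087. With either E8.5 cKO library left out, 7 genes were called, 2 higher (*Vim* and *Lgals1*) and 5 lower (*Anxa1*, *Flna*, *Rhob*, *S100a6* and *S100a10*), beside 195 or 196 higher and 5836 or 5839 lower of all 10018 tested genes.

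In cKO hearts, 2 of the 10 genes were called higher at E9.5 (*Anxa2* and *Vim*), as were 2.05% of all tested genes, and 0 lower, as were 28.5%. On FPKM as deposited, both E9.5 libraries were above both E8.5 libraries in 4 genes (*Anxa2*, *Anxa5*, *Flna* and *Vim*, 7.05% of all genes) and below in 1 (*S100a10*, 62.7% of all genes). After division by the library median, 5 were above (*Anxa2*, *Anxa5*, *Flna*, *Vim* and *Lgals1*, 30.7% of all genes) and 0 below (23.8% of all genes). The median was -0.26 for the 10 genes and -0.64 for all genes. This comparison shares the E9.5 cKO libraries with the contrast treated as the one that chose the genes, and *Anxa2* is high in exactly those libraries. Its differences had a Spearman correlation of 0.51 with GC content across 9122 genes, whose part in the result was not tested.

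The cKO stage comparison depended strongly on the E8.5 cKO replicate used. Without replicate 1, 8 of the 10 genes were called, 3 higher (*Anxa2*, *Flna* and *Vim*) and 5 lower (*Anxa1*, *Rhob*, *S100a6*, *S100a10* and *S100a11*), beside 417 higher and 2740 lower of all 10018 tested genes, with *S100a6* at -6.98 (SE 0.31, adjusted p = 0.000416, limma). Without replicate 2, *Anxa2* and *Vim* were called higher and 0 lower, beside 117 and 2351 of all tested genes, and *S100a6* was at 0.60 (SE 0.31). Without E9.5 cKO replicate 1 or replicate 2, neither *Anxa2* nor *Vim* was called, and over all tested genes the 205 calls upward and 2857 downward became 1 and 0 or 1 and 1. Over all fits that left out 1 library, *Anxa2* ranged from 1.53 to 2.11 and *Vim* from 1.17 to 1.41, with adjusted p (limma) for *Vim* up to 0.0908.

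The 10 genes did not vary as a single block over the 8 libraries. On the log2 scale, the Pearson correlation was 0.954 between *Anxa1* and *S100a6*, 0.950 between *Anxa1* and *S100a10* and 0.949 between *S100a6* and *S100a10*, and *Rhob* correlated with *S100a6* at 0.903. *Anxa2* was closest to *Anxa5* (0.734) and *Flna* (0.643), and its correlation with *S100a10* was -0.33. *Vim* ran against the first group, with -0.794 to *S100a10* and -0.727 to *Rhob*. These values describe 8 libraries that share stage, genotype, depth and tissue makeup.

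The 5 tested genes most like the mean of the 10, by Pearson correlation over the 8 libraries, were *Itpk1* (0.977), an inositol phosphate kinase, *Lgals3* (0.975) and *Lgals9* (0.973), which encode galectins, *Gsdmd* (0.967), which encodes the pore-forming gasdermin D, and *Ripk2* (0.957), a kinase of innate immune signalling. That mean is taken over unscaled log2 levels, so *S100a6* (299-fold over the libraries) and *Anxa1* (144-fold) weigh most in it. *Vim* and *Anxa2* correlated with *S100a6* at -0.717 and -0.177. *Lgals3*, abundant in macrophages, was at 41.8 and 48.4 FPKM in WT hearts of E8.5 against 0.874 and 256 in cKO hearts, and 0.43 and 1.13 in WT hearts of E9.5 against 6.77 and 2.51 in cKO hearts. Like *S100a6*, it was lowest at E8.5 in cKO replicate 1 and highest in cKO replicate 2.

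Lists of related genes were compiled from general knowledge, and 106 of their 107 genes were in the table and 90 were tested. At E8.5, 0 of the 90 were called between genotypes. From E8.5 to E9.5, 2 were called higher (2.22%) and 22 lower (24.4%) in WT hearts, and 8 higher (8.89%) and 13 lower (14.4%) in cKO hearts, beside the shares of all genes given above.

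**Figure D4:**
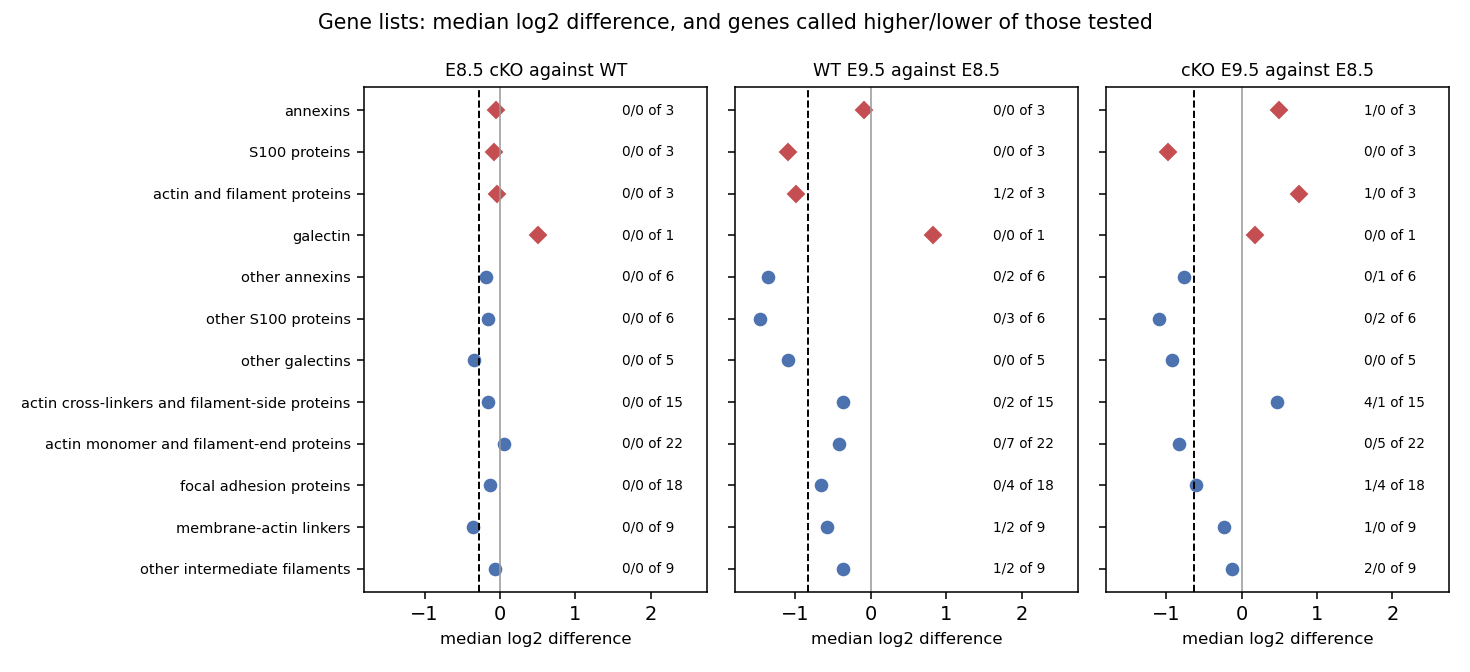
Median log2 difference of each gene list in the 3 tested comparisons, with diamonds for the 10 genes by role, circles for the related lists, a dashed line for the median of all tested genes, and the numbers called higher/lower of those tested at the right. In cKO hearts the actin cross-linkers had a median of 0.47 with 4 genes called higher of 15, and the actin monomer and filament-end list a median of -0.83 with 5 called lower of 22.

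Of the other annexins (6 tested of 9), 0 were called higher between stages in either genotype. In WT hearts 2 of them were called lower between stages, *Anxa3* (-1.30, SE 0.28, adjusted p = 0.0151, limma) and *Anxa7*, which was named after its values were seen (-1.60). In cKO hearts 1 was called lower, *Anxa7* again (-0.85). *Anxa6*, the most abundant of them, was at 169 and 163 FPKM in WT against 246 and 277 in cKO hearts of E9.5. Its E8.5 levels of 138 and 161 in WT and 205 and 84.7 in cKO overlapped, and the E9.5 cKO libraries lay above all 6 others, as those of *Anxa2* did. The difference between stages was 0.98 in cKO (SE 0.40, adjusted p = 0.0897, limma) and 0.15 in WT (SE 0.40, adjusted p = 0.745, limma).

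Among the other S100 genes (6 tested of 13), 3 were called lower in WT hearts between stages. They were *S100a1*, an S100 gene of heart muscle (-1.96, SE 0.36, adjusted p = 0.0124, limma), and *S100a4* (-6.29) and *S100a8* (-6.75), both named after their values were seen. In cKO hearts *S100a1* (-1.27, adjusted p = 0.0345, limma) and *S100a8* (-4.61) were called lower. *S100a4* lies on chromosome 3 at 90603770 to 90606045, and was at 126 and 79.7 FPKM in WT against 0.879 and 185 in cKO hearts of E8.5, and at 0 to 0.68 at E9.5. *S100a8* is also in the macrophage and neutrophil list. *S100g*, the most abundant of the list, was at 139 and 437 FPKM in WT against 1116 and 199 in cKO hearts of E8.5, and at 549.5 to 754 at E9.5, with the E8.5 cKO replicates in the opposite order to *S100a6*. Of the other galectins (5 tested of 9), 0 were called in any of the 3 tested comparisons, and *Lgals2* was at 51.1 to 273 FPKM.

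Actin cross-linkers and proteins along the filament (15 tested of 16) were the list closest to *Flna* in role. In cKO hearts 4 of the 15 rose between stages and 1 fell, with a list median of 0.47 beside -0.64 over all genes, and in WT hearts 0 rose and 2 fell. The smooth muscle actin-binding gene *Tagln* was at 231 and 330 FPKM in WT hearts of E8.5 against 306 and 154 in cKO hearts, and 352 and 586 in WT hearts of E9.5 against 1536 and 1218 in cKO hearts. It rose by 2.65 in cKO (SE 0.41, adjusted p = 0.016, limma), and the difference in WT was 0.72 (SE 0.41, adjusted p = 0.163, limma). Calponin-2, *Cnn2*, rose by 1.19 in cKO (SE 0.25, adjusted p = 0.0179, limma), with E9.5 levels of 457 and 493 FPKM in WT and 956 and 930 in cKO. The E9.5 cKO libraries of both genes lay above all 6 others, as did those of *Anxa2* and *Flna*.

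The list of actin monomer and filament-end proteins (22 tested of 22) had 0 called higher and 7 lower in WT hearts and 0 higher and 5 lower in cKO hearts, beside 46.7% and 28.5% of all genes called lower. Its median was -0.43 in WT and -0.83 in cKO, against -0.84 and -0.64 over all genes. Its most abundant genes, *Tmsb10* (thymosin beta-10, which holds actin monomers) and *Pfn1* (profilin-1), were not called. *Tmsb10* was at 6173 to 12511 FPKM and *Pfn1* at 3428 to 5327 over the 8 libraries. Focal adhesion proteins (18 tested of 18) had 0 called higher and 4 lower in WT and 1 higher and 4 lower in cKO. Their most abundant member *Pdlim7* was at 261 and 241 FPKM in WT against 680 and 529 in cKO hearts of E9.5, and *Ilk*, the integrin-linked kinase, at 140 and 141 against 222 and 213. Neither passed the threshold between stages in either genotype.

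Membrane-actin linkers (9 tested of 10) had 1 called higher and 2 lower in WT, and 1 higher, *Ptrf* (cavin-1, 1.86, SE 0.46, adjusted p = 0.0256, limma), and 0 lower in cKO. *Slc9a3r1*, the ezrin-binding scaffold and the most abundant of that list, was at 59.8 to 180 FPKM and was not called. Among the other intermediate filaments (9 tested of 10), the muscle filament desmin, *Des*, rose in both genotypes as *Vim* did, by 1.26 in WT (SE 0.29, adjusted p = 0.0161, limma) and 1.75 in cKO (SE 0.29, adjusted p = 0.016, limma). The keratin *Krt8* fell in WT by 1.16 (SE 0.33, adjusted p = 0.0261, limma), and its difference in cKO was -0.13 (SE 0.33, adjusted p = 0.775, limma). The median of all tested genes was -0.84 in WT and -0.64 in cKO.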

How the data were processed

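RNA was extracted with TRIZOL from E8.5 and E9.5 hearts and amplified from 100 ng of total RNA by a Smart-seq2 protocol, per the labels and the study's methods. Reads were mapped with BWA to mm9 per the submitters' notes, while the gene positions of the table lie on GRCm38: 91.7% of 9513 genes matched by symbol in RefSeq started within 1000 bp of the GRCm38 start. The authors deposited FPKM values, and the program that made them is not given in the sources used here. The table had 24930 entries and 8 columns, of which 0 were left unused; columns headed nc and mu were read as WT and cKO. For 285 symbols with several entries, the one of highest mean level was used.

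FPKM depend on the library total, and features with loci under 300 bp held 15.7% to 54.5% of it. Their share was 15.7% and 16.2% in WT against 38.6% and 50.5% in cKO at E8.5, where it went with genotype. At E9.5 it was 22.4% and 18.4% in WT against 54.5% and 18.3% in cKO. Depth was estimated from the steps between low values of genes with a single transcript, and lay between 12900000 and 18600000 fragments a library (approximate). Features whose mean over the 8 libraries reached 1 FPKM were compared as log2(FPKM + 1), which understates the change of low genes. All 4 groups entered 1 limma model (version 3.58.1, R 4.3.3) with a mean-variance trend, two-sided, and Benjamini-Hochberg adjustment covered the 10018 genes. The study names an unpaired t-test, and with 2 libraries a group the smallest two-sided p of an exact permutation test is 0.333. A call needed an adjusted p under 0.05 together with a change of 1.5-fold or more. The procedure was tested on simulated data. Tables and figures were made with Python 3 tools.

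All 10 members were named; of the related lists, the 2 genes with the highest mean in each and any gene called at E8.5; and the 5 genes most like the members. A further list of related genes is not reported here. The members and all lists were chosen with earlier results of these data known. Strandedness is not given in the sources used here. Alternatives to the scaling, pseudocount, filter, groups fitted, variance trend, replicate block and libraries used were run.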

Additional observations from a re-analysis of the deposited data

Results flagged for a closer look

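With 2 libraries in a group, no library could be tested as standing apart from its group. One gene met the rule for an effect that goes opposite ways in 2 groups. From E8.5 to E9.5, both WT libraries of *Flna* were lower (18.3 and 15.0 FPKM at E9.5 against 41.6 and 27.6) and both cKO libraries were higher (50.0 and 64.4 against 42.7 and 25.5). The log2 difference was -0.99 in WT and 0.76 in cKO, so the cKO change exceeded the WT change by 1.75. This difference between genotypes was not tested, since it contains the E9.5 contrast taken to have chosen the gene. The WT side of it was close to 0 after median-ratio scaling (-0.01), where the cKO side was 1.53.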

How the results depend on the processing

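With 2 libraries a group and FPKM scaled to unequal totals, no call on the 10 genes held under every alternative, libraries left out included. In WT hearts between stages, 2 genes were called higher with only the 2 groups in the fit, and the number called lower was 0 with median-ratio scaling, quantile normalization or no filter, 3 with a pseudocount of 0.1 (*S100a6* added), 2 with a mean of at least 5 FPKM (*S100a6* in place of *Rhob*), 4 with totals over loci of 300 bp or more, and 5 with only the 2 groups, where 6287 and 5440 of all 10018 tested genes were called lower. In cKO hearts 1 gene was called higher with no filter or only the 2 groups.

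The members' median less that of all genes was -0.019 at E8.5, -0.60 in WT and -0.20 in cKO between stages with no filter, where all listed features enter the median, and -0.16 in WT with quantile normalization. The cause of the other changes was not tested.

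With the replicate number as a block, 1 gene was called lower in WT between stages (*Flna*, not *Rhob*), and the block changed no other call on the 10 genes. The numbers do not pair the samples: correlations of deviations between equally numbered libraries ran from -0.116 (WT, E8.5 with E9.5) to 0.195 (E8.5 cKO with E9.5 WT). With numbers crossed between the stages, chosen after seeing the data, the counts were as without a block.

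Leaving out 1 library, the number called higher was 0 to 2 in WT and 0 to 3 in cKO between stages, and the number called lower 0 to 1 at E8.5, 0 to 5 in WT and 0 to 5 in cKO. The members' median less that of all genes was -0.28 to 1.13 at E8.5, 0.11 to 0.40 at E9.5, -0.07 to 0.24 in WT and -0.49 to 1.18 in cKO.

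Signs of small differences turned with scaling. At E8.5, median-ratio scaling gave 0.28 for *Anxa5*, 0.29 for *Flna* and 0.25 for *S100a10* and *Vim*, quantile normalization 0.23 for *Anxa5*, 0.33 for *Flna* and 0.19 for *Vim*, and totals over longer loci -0.045 for *Anxa2* and -0.0043 for *Rhob*. In WT between stages, *Anxa2* was 0.92 with median ratios and 0.36 with quantiles, *S100a11* 0.54 with median ratios, and *Anxa5* -0.10 with longer loci. At E9.5, as a description, quantile normalization gave 0.59 for *Anxa5* and -0.07 for *Vim*, with no turn of sign.

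Without 1 library, E8.5 differences ran from -3.27 to 1.22 for *Anxa1*, -0.24 to 0.34 for *Anxa2*, -0.28 to 0.17 for *Anxa5*, -5.08 to 2.50 for *S100a6*, -0.75 to 0.58 for *S100a10*, -0.98 to 1.54 for *S100a11*, -0.40 to 0.32 for *Flna*, -0.83 to 0.99 for *Rhob*, -0.17 to 0.0027 for *Vim* and -0.18 to 1.19 for *Lgals1*. In WT between stages *Anxa2* ran from -0.47 to 0.29. In cKO the ranges were -4.44 to 0.049 for *Anxa1*, -6.98 to 0.60 for *S100a6*, -2.15 to 0.37 for *S100a11*, -1.60 to 0.22 for *Rhob* and -0.51 to 0.86 for *Lgals1*.

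Over all tested genes, the stage comparisons held 140 higher and 4683 lower calls in WT and 205 and 2857 in cKO; median-ratio scaling gave 293 and 65, and 357 and 74, quantile normalization 88 and 27, and 258 and 49, no filter 53 and 2016, and 38 and 473, a mean of at least 5 FPKM 2516 lower in WT and 1781 lower in cKO, and the 2 groups alone 125 and 1393 in cKO. At E9.5 the 17 higher and 1 lower calls became 56 and 5 with median ratios, 29 and 2 with quantiles, 3 and 0 with no filter, 16 and 4 with a mean of at least 5 FPKM, 11 and 1 with the block, and 0 and 0 with the 2 groups alone or crossed numbers. At E8.5 each of these settings gave at most 3 calls in a direction. Leaving out 1 library gave 4 to 196 higher and 28 to 5839 lower calls in WT between stages, 1 to 417 and 0 to 2740 in cKO, 0 to 67 and 0 to 20 at E9.5, and 0 to 20 and 0 to 46 at E8.5.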
